A study of Mus musculus with 32 samples.

Results

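The 8 genes described here encode the core of 2 programmed lytic cell death pathways in the mouse spinal cord: Ripk1, Ripk3 and Mlkl of necroptosis, Nlrp3, Pycard, Casp1 and Gsdmd of the inflammasome, and Casp8, which sits between them. They were chosen by name, with no threshold on their values but with earlier results of these data known, and all 8 were found among the 42524 genes of the count table. RNA was measured in the spinal cord of 32 mice in 8 groups of 4: WT and G93A mice, each left untreated or given OKN-007, at 90 days and at 155 days; the study's methods give the earlier age as 95 days. G93A mice carry the Gur transgene insertion of human SOD1 with the G93A change, an overexpression model of amyotrophic lateral sclerosis bred on C57BL/6J, and their wild-type littermates were the WT controls. OKN-007 is a nitrone compound. In the methods the cohorts killed at 95 or 155 days received the higher dose of OKN-007, for which females alone were used, and the methods do not state which cohorts the sequenced mice came from. Their dose, start of treatment and sex are therefore not given for certain, and the spinal segment taken and any pooling are not given in the sources used here. The p-values rest on the spread between the samples within groups of 4, estimated jointly over all groups of a fit.

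Necroptosis is a lytic death program in which the kinase Ripk1, downstream of death receptors, engages Ripk3, which phosphorylates Mlkl, and Mlkl then disrupts the plasma membrane. The inflammasome is a cytosolic platform in which a sensor such as Nlrp3 joins the adaptor Pycard (ASC) to the protease Casp1, which matures interleukin-1 beta and cleaves Gsdmd into a membrane pore. Casp8 starts death receptor apoptosis and, by cleaving Ripk1 and Ripk3, holds necroptosis in check. In the nervous system the inflammasome genes are best known from microglia. All of these proteins are regulated by cleavage, phosphorylation or assembly, which RNA levels do not measure.

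The gene counts of a mouse summed to 19701722 to 30138257, and values are given as CPM, counts scaled to library size, with TMM factors over all 32 mice. Mouse Sod1 lay at 241 to 354 CPM in the 16 WT mice and at 237 to 404 CPM in the 16 G93A mice, and, being the endogenous gene, it does not check the human transgene. The smallest library gives 0.152 CPM to a gene with 3 counts, and only Ripk3, at 0 to 23 counts per mouse, came close to that level. At 155 days caudal Hox genes, which mark the lower cord, summed to 84.1 to 166 CPM in WT and to 4.26 to 82.2 CPM in G93A mice. These markers thus moved with genotype, while position along the cord was not measured. The sum of 9 neuron markers had a median of 16178 CPM in WT and 8170 CPM in G93A untreated mice of that time. Its part in the Hox values was not tested. The sum of 6 liver genes reached 189 CPM in 1 G93A untreated mouse and 131 CPM in 1 G93A OKN-007 mouse at 155 days, against at most 19.3 CPM in the WT mice of that time. The 7 members tested were called without each of these mice and, except Mlkl, with the Hox score as a covariate.

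The genes lie on 8 different chromosomes. In the GENCODE M21 annotation (GRCm38) Nlrp3 occupies chr11:59541568-59566956 on the plus strand, Pycard chr7:127989708-127993867 on the minus strand, Casp1 chr9:5298517-5307265 on the plus strand and Gsdmd chr15:75862327-75867408 on the plus strand. Ripk1 lies at chr13:34002363-34037147 on the plus strand, Ripk3 at chr14:55784995-55788865 on the minus strand, Mlkl at chr8:111311797-111338177 on the minus strand and Casp8 at chr1:58795374-58847503 on the plus strand. In that annotation Pycard shares 485 exon bases with Gm45205 on the opposite strand, which had 224 counts over the 32 mice, and Ripk1 shares 241 exon bases with Serpinb6a on the opposite strand, which had 58766. Whether the counting used strand is not given in the sources used here, so reads in the shared bases cannot be told apart.

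RefSeq promoter windows, 250 bases before to 50 after a start (GRCm38.p6), were found for 7 of the 8 members (all but Gsdmd), 9 windows in all. They are shown for Pycard, Nlrp3 and Casp1, the adaptor, sensor and protease of the inflammasome, and for Nlrp3 only the window with a match to the hexamer marked below, so the 3 windows were picked with the matches known. Capitals mark the hexamer GAGGAA, the core bound by ETS factors of the PU.1 type, which drive gene expression in microglia and other myeloid cells, on either strand (TTCCTC on the other).
Pycard, chr7:127993818-127994117, minus strand: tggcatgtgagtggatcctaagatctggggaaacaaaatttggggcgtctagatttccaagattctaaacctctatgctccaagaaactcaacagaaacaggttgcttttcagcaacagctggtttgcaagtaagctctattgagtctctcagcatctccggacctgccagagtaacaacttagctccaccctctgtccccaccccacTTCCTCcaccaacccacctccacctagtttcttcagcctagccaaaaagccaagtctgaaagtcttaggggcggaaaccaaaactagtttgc
Nlrp3, second of 2 starts, chr11:59542436-59542735, plus strand: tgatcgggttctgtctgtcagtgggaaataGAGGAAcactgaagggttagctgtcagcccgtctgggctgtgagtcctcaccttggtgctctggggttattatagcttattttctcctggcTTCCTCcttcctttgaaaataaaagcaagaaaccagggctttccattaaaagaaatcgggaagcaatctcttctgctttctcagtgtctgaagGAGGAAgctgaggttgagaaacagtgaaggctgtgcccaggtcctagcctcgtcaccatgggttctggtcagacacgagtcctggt
Casp1, chr9:5298267-5298566, plus strand: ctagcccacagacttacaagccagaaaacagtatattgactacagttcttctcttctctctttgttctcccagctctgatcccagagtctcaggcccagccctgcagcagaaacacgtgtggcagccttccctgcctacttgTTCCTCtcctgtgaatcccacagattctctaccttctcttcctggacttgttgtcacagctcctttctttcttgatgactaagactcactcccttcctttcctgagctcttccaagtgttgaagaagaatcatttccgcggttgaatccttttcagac

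Pycard and Casp1 each held 1 match, at bases -42 and -108 from the start, and the second Nlrp3 window held 3. The second Ripk1 window held 2 matches, and the windows of Ripk3, Mlkl and Casp8 and the first windows of Ripk1 and Nlrp3 held none. Over all 32851 promoter windows of this length 28.3% held the hexamer, so its presence in 4 of the 9 member windows is a description only. The interferon-type pattern GAAANNGAA (both strands) was found in 2 of the 9 windows, those of Ripk3 and the second start of Ripk1, and in 8.56% of all windows. TTCNNNGAA, the core of STAT sites, was found in 1 member window and 8.30% of all windows, overlapping the former match in the second Ripk1 window. The kappaB-type pattern GGGNNTTTC was found in 0 member windows and 4.36% of all windows, and the GC box GGGCGG in 4 member windows and 35.7% of all.

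**Figure D1:**
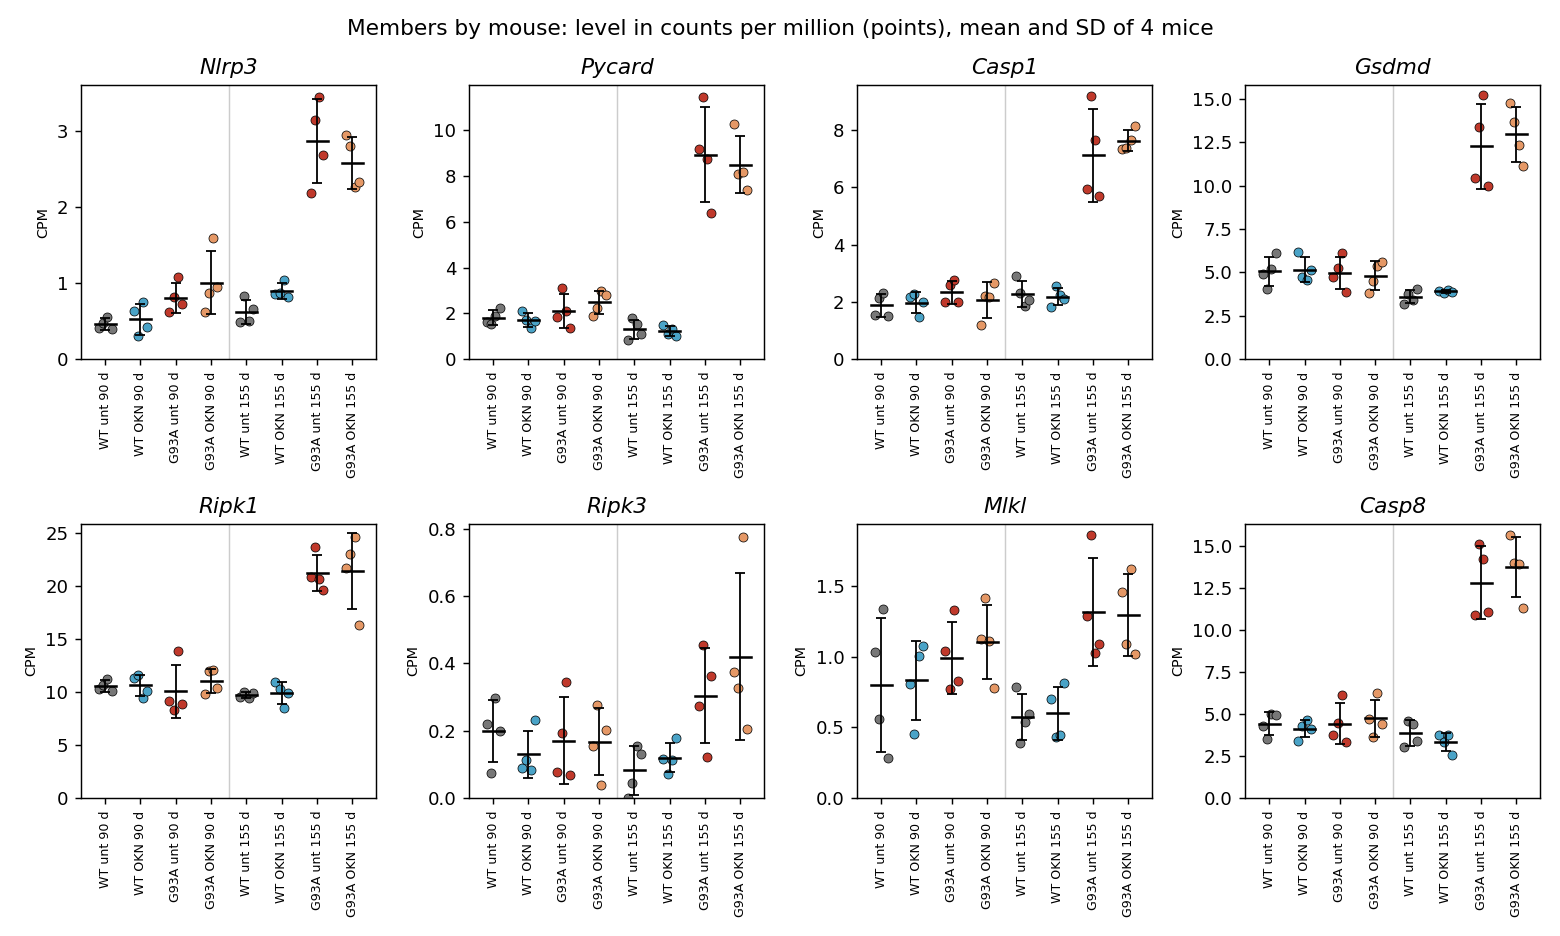
Level of each member in CPM (vertical axes, linear from 0) in every mouse (points), with the mean and SD of each group of 4 (line and bar), by genotype, treatment and time (unt, untreated; OKN, OKN-007; d, days). At 155 days all 4 mice of each G93A group lie above all 4 of the WT group of the same treatment for Nlrp3, Pycard, Casp1, Gsdmd, Ripk1, Mlkl and Casp8, while at 90 days the groups overlap except for Nlrp3 in untreated mice.

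Levels between genes were compared per kilobase of annotated exon, on the union of all annotated transcripts. In WT untreated mice at 155 days the order was Casp1 (1.53 ± 0.300 CPM per kb, SD, n = 4), Gsdmd (1.52 ± 0.157), Casp8 (1.33 ± 0.266), Ripk1 (1.17 ± 0.0323), Pycard (0.343 ± 0.114), Mlkl (0.249 ± 0.0704), Nlrp3 (0.152 ± 0.0394) and Ripk3 (0.0357 ± 0.0315). Each of the first 4 overlapped its neighbour in that order, Pycard lay below all of them, and Ripk3 lay below Nlrp3 in every mouse. In G93A untreated mice the order was Gsdmd (5.16 ± 1.04), Casp1 (4.76 ± 1.09), Casp8 (4.43 ± 0.745), Ripk1 (2.55 ± 0.207), Pycard (2.35 ± 0.548), Nlrp3 (0.706 ± 0.136), Mlkl (0.572 ± 0.165) and Ripk3 (0.133 ± 0.0617). Pycard thus overlapped Ripk1 in G93A mice, which it did not in WT mice. The necroptosis effectors Mlkl and Ripk3 were the lowest 2 members by mean in G93A mice, with Mlkl overlapping Nlrp3. The per-kilobase level of Pycard rests on an exon union of 3800 bases that includes long alternative transcripts. That of Ripk1 rests on the longest union of the members, 8344 bases. The places of both genes in these orders, and their overlap, depend on these lengths.

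At 155 days the inflammasome and necroptosis genes were higher in G93A than in WT cord. In untreated mice 7 of the 7 members that could be tested rose, by 2.20-fold (Ripk1) to 6.97-fold (Pycard), and their median log2 fold change was 1.75 against 0.00 over all genes tested. The background was broad, since 39.5% of the 18675 genes tested passed an adjusted p of 0.05 and 21.3% passed it upward. Ripk3 had too few counts for the test and is described separately. Relative RNA levels of whole cord cannot tell apart more cells of a type and more RNA per cell.

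Pycard, the adaptor, showed the largest change of the 8. It lay at 0.819, 1.78, 1.53 and 1.08 CPM in the 4 WT untreated mice and at 9.18, 11.5, 8.74 and 6.38 CPM in the 4 G93A untreated mice, so the lowest G93A mouse stood far above the highest WT mouse. The log2 fold change was 2.80 ± 0.22 (SE, adjusted p = 8.45e-09, edgeR quasi-likelihood test). Nlrp3, the sensor, lay at 0.484, 0.824, 0.497 and 0.656 CPM in WT and at 2.19, 3.14, 3.44 and 2.68 CPM in G93A mice, again without overlap. Its log2 fold change was 2.23 ± 0.22 (adjusted p = 1.68e-07), on 13 to 20 counts in WT and 56 to 84 in G93A mice.

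Casp1, the protease of the complex, lay at 2.91, 2.30, 1.87 and 2.07 CPM in WT and at 5.94, 9.18, 7.67 and 5.72 CPM in G93A mice. Its log2 fold change was 1.65 ± 0.17 (adjusted p = 3.43e-07), and every G93A mouse was above every WT mouse. Gsdmd, the pore former, lay at 3.20, 3.73, 3.44 and 4.07 CPM in WT and at 10.5, 13.4, 15.2 and 10.01 CPM in G93A mice, a log2 fold change of 1.78 ± 0.14 (adjusted p = 8.60e-09). In these untreated mice the sensor and the adaptor had larger estimates than the enzyme and the pore. In OKN-007 treated mice Nlrp3 (1.56) lay below Casp1 (1.84) and Gsdmd (1.77), and the order was not tested.

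Casp8 lay at 3.02, 4.60, 4.39 and 3.38 CPM in WT and at 10.9, 15.1, 14.2 and 11.04 CPM in G93A untreated mice, without overlap. Its log2 fold change, 1.75 ± 0.16 (adjusted p = 7.32e-08), was near those of Casp1 and Gsdmd.

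Ripk1 and Mlkl of the necroptosis pathway had the smallest estimates of the 7 members tested, and differences between genes were not tested. Ripk1, the kinase at the head of the pathway, was at 9.54, 10.02, 9.47 and 9.90 CPM in WT and at 20.9, 23.7, 20.7 and 19.7 CPM in G93A mice. Its groups were tight and apart, with a log2 fold change of 1.14 ± 0.11 (adjusted p = 2.17e-07). Mlkl, the executioner, was at 0.782, 0.390, 0.535 and 0.590 CPM in WT and at 1.29, 1.86, 1.03 and 1.09 CPM in G93A mice, on 9 to 45 counts per mouse. The groups did not overlap (log2 fold change 1.19 ± 0.29, adjusted p = 0.00301), and when the caudal Hox score entered the fit the value was 0.84 with an adjusted p of 0.0851.

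Ripk3, the kinase that activates Mlkl, was barely detected. The 4 WT untreated mice held 0, 1, 4 and 4 counts and the 4 G93A untreated mice 7, 11, 3 and 11, so the groups overlapped. Fitted without the filter on low counts, the log2 fold change was 1.83 ± 0.67 (adjusted p = 0.0470). This call was lost without WT untreated replicate 1 (adjusted p = 0.184), WT untreated replicate 2 (0.111), G93A untreated replicate 10 (0.160) or G93A untreated replicate 12 (0.0905), with the Hox score (0.177) and with RLE scaling (0.0501). Its fitted fold depends on the prior count of the fit and is no bound.

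Counted by mouse, all 7 members tested had the 4 G93A untreated mice above the 4 WT untreated mice, where 17.4% of the genes tested did.

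The same comparison among OKN-007 treated mice at 155 days rests on 8 other mice. The treated and untreated comparisons share no mouse but share 1 estimate of the spread. There 7 of 7 members tested rose again, against 41.5% of all genes in either direction and 23.3% upward, with a median log2 fold change of 1.77 against 0.02 over all genes. All 7 members tested had the 4 G93A mice above the 4 WT mice, where 22.6% of genes tested did. Pycard lay at 1.51, 1.11, 1.31 and 1.02 CPM in WT OKN-007 mice and at 10.3, 8.10, 8.20 and 7.41 CPM in G93A OKN-007 mice, a log2 fold change of 2.82 ± 0.22 (adjusted p = 6.27e-09). Nlrp3 lay at 0.853, 0.863, 1.05 and 0.812 CPM against 2.95, 2.80, 2.26 and 2.32 CPM, a log2 fold change of 1.56 ± 0.21 (adjusted p = 6.81e-06). The WT mean of Nlrp3 was higher (0.893 against 0.615 CPM), its G93A mean lower (2.58 against 2.86 CPM) and its fold smaller than in the untreated mice. None of these differences passed the adjusted threshold.

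Casp8 had a log2 fold change of 2.08 ± 0.16 (adjusted p = 6.80e-09) in the treated mice, from 3.34 ± 0.542 to 13.7 ± 1.79 CPM (SD, n = 4). Casp1 rose by 1.84 ± 0.17 on the log2 scale (adjusted p = 7.10e-08) and Gsdmd by 1.77 ± 0.14 (adjusted p = 6.30e-09). Gsdmd was even among the WT OKN-007 mice, at 3.96, 3.81, 3.99 and 3.88 CPM. Ripk1 rose by 1.15 ± 0.11 (adjusted p = 1.53e-07) and Mlkl by 1.15 ± 0.29 (adjusted p = 0.00325), and Mlkl had an adjusted p of 0.102 with the Hox score. Ripk3 was at 3, 2, 3 and 5 counts in WT and at 11, 9, 23 and 5 counts in G93A OKN-007 mice (log2 fold change 1.81 ± 0.62, adjusted p = 0.0268, fitted without the filter). The highest WT and the lowest G93A mouse both held 5 counts, at 0.177 and 0.204 CPM, so their order rests on the scaling. Without G93A OKN-007 replicate 15, which held the 23 counts, the adjusted p was 0.254, it was 0.0552 to 0.0834 without WT replicate 5, 6 or 7, and 0.136 with the Hox score.

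**Figure D2:**
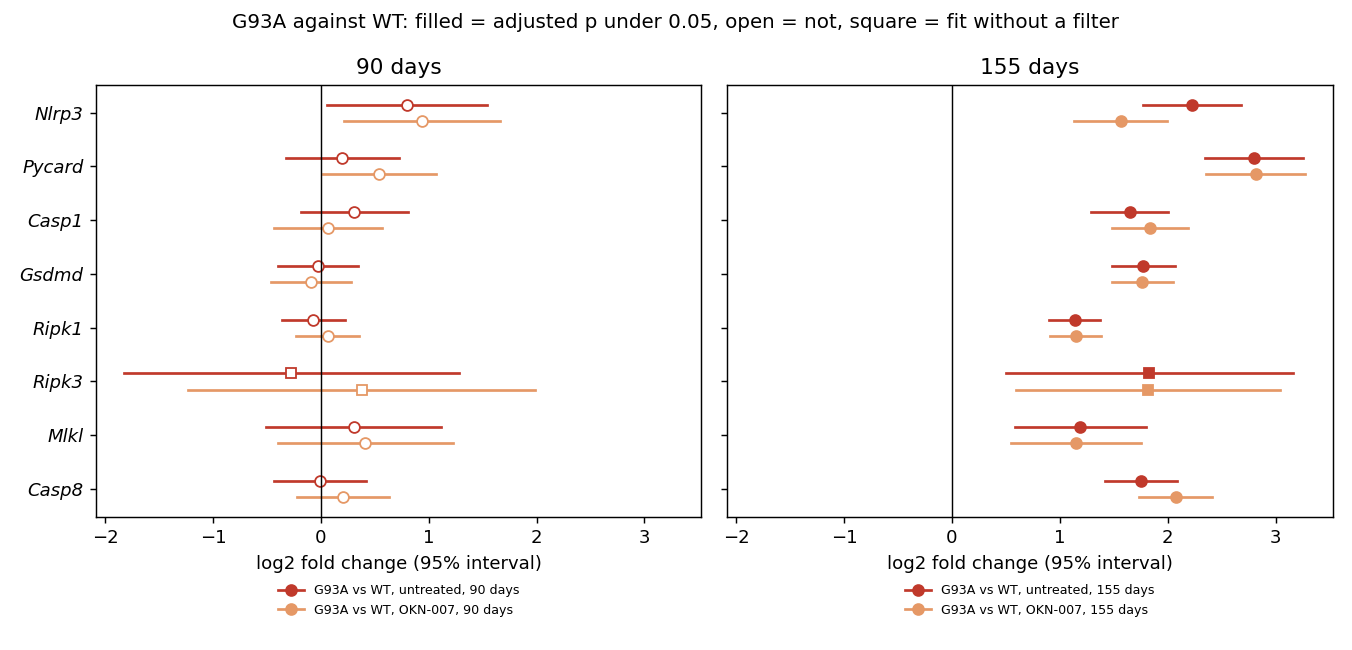
Log2 fold change of G93A against WT (horizontal axes) for each member, with its 95% interval, at 90 days (left) and 155 days (right), in untreated (red) and OKN-007 treated (orange) mice. At 155 days every interval lies above 0, from 1.14 for Ripk1 to 2.82 for Pycard in estimate, while at 90 days no estimate passed an adjusted p of 0.05 and those of Nlrp3 are the largest. Ripk3 (squares) comes from the fit without the filter on low counts. Its calls at 155 days were lost under 6 of 12 alternatives in untreated and 5 of 12 in treated mice.

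No member was called for OKN-007 itself. In G93A mice at 155 days 0 of 7 members passed in edgeR, as did 0% of all 18675 genes. An unadjusted p under 0.05 was found for 0 members and 4.04% of genes. DESeq2 and the likelihood ratio test also called 0 members. The estimates of OKN-007 against untreated ran from -0.14 (Nlrp3, 95% interval -0.53 to 0.26) to 0.11 (Casp8, -0.20 to 0.42). Pycard was at -0.06 (-0.45 to 0.33), Gsdmd at 0.09 (-0.17 to 0.36), Casp1 at 0.11 (-0.22 to 0.44), Ripk1 at 0.02 (-0.20 to 0.25) and Mlkl at -0.0024 (-0.57 to 0.56). The widest of these intervals, that of Mlkl, still holds changes of 0.56 either way. The treated and untreated G93A mice overlapped for all 8 members. The share of all genes that overlapped in this way is not given here, so that count is a description only. A p that misses the threshold does not show that the treated mice had the same levels.

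In WT mice at 155 days 0 of 7 members and 0% of all genes were called by edgeR. There 1 member, Nlrp3, had an unadjusted p under 0.05, as did 2.94% of genes. Nlrp3 was at 0.615 ± 0.160 CPM untreated and 0.893 ± 0.104 CPM with OKN-007 (SD, n = 4), a log2 fold change of 0.53 ± 0.23 (unadjusted p = 0.0356, not passing after adjustment). The lowest treated mouse, at 0.812 CPM, was just below the highest untreated mouse, at 0.824 CPM. DESeq2 and the likelihood ratio test put 0 members under an unadjusted p of 0.05 there, against 2.87% and 2.82% of genes.

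The genotype by treatment term, the difference of the OKN-007 effect between G93A and WT mice, was likewise called for 0 of 7 members and 0% of genes at 155 days. Nlrp3 had the largest estimate in size, -0.67 ± 0.30 (edgeR unadjusted p = 0.0396, adjusted p = 0.9998), and the other 6 lay between -0.04 and 0.32. By edgeR 2.34% of all genes had an unadjusted p under 0.05. DESeq2 and the likelihood ratio test called 0 members and put 0 under an unadjusted p of 0.05. At 90 days the term was called for 0 of 7 members and 0% of the 18899 genes tested, with estimates from -0.24 (Casp1) to 0.34 (Pycard). An unadjusted p under 0.05 was found there for 0 members and 2.81% of genes. OKN-007 at 90 days was called for 0 of 7 members and 0% of genes in G93A mice, with estimates from -0.17 (Casp1) to 0.32 (Nlrp3), and for 0 of 7 and 0% in WT mice, from -0.11 (Casp8) to 0.18 (Nlrp3). In both cases 0 members had an unadjusted p under 0.05, against 5.56% of genes in G93A and 4.07% in WT mice. DESeq2 and the likelihood ratio test called 0 members.

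**Figure D3:**
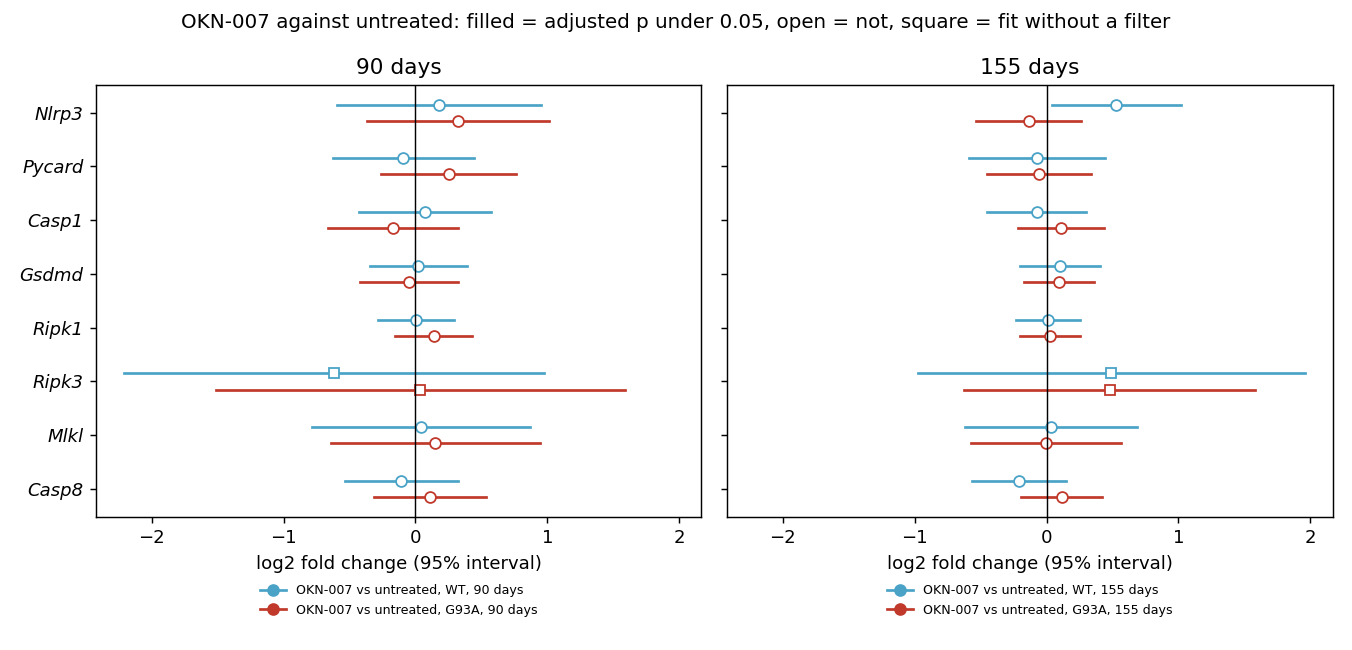
Log2 fold change of OKN-007 against untreated (horizontal axes) for each member, with its 95% interval, at 90 days (left) and 155 days (right), in WT (blue) and G93A (red) mice. No estimate passed an adjusted p of 0.05, and the interval of Nlrp3 in WT mice at 155 days, 0.04 to 1.02, lies above 0 before adjustment. Ripk3 (squares) comes from the fit without the filter on low counts.

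At 90 days no member passed the test between genotypes, and the highest estimates belonged to Nlrp3. In untreated mice 0 of 7 members and 0% of 18899 genes were called by edgeR. There 1 member, Nlrp3, had an unadjusted p under 0.05, as did 5.96% of genes. Nlrp3 lay at 0.405, 0.481, 0.558 and 0.3995 CPM in WT and at 0.615, 0.818, 1.07 and 0.722 CPM in G93A untreated mice, on 10 to 25 counts per mouse. It was the 1 member of 8 whose G93A mice all stood above the WT mice, where 1.19% of genes did. Its log2 fold change was 0.80 ± 0.35 (unadjusted p = 0.0358, adjusted p = 0.822).

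Among OKN-007 treated mice at 90 days 0 of 7 members and 0% of genes were called. There 2 members, Nlrp3 and Pycard, had an unadjusted p under 0.05, as did 3.95% of genes. Nlrp3 lay at 0.629, 0.299, 0.754 and 0.419 CPM in WT and at 0.619, 0.867, 1.59 and 0.944 CPM in G93A mice, with overlap (log2 fold change 0.94 ± 0.34, unadjusted p = 0.0137, adjusted p = 0.9996). Pycard was at 1.71 ± 0.315 CPM in WT and 2.48 ± 0.503 CPM in G93A mice (SD, n = 4), a log2 fold change of 0.54 ± 0.25 (unadjusted p = 0.0426, adjusted p = 0.9996). Here 0 of 8 members had groups apart, against 1.58% of genes.

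Averaged over both treatments, 0 of 7 members and 0.0265% of genes, 5 in all, were called at 90 days. Nlrp3 had a log2 fold change of 0.87 ± 0.25 (unadjusted p = 0.00236, adjusted p = 0.353), and 6 of the 8 G93A mice but 2 of the 8 WT mice stood above the median of the 16 mice of that time, 0.624 CPM. Its adjusted p was 0.187 by DESeq2 and 0.123 by the likelihood ratio test. DESeq2 and the likelihood ratio test called 0 members in each of the 3 genotype comparisons at 90 days. Pycard had 0.37 ± 0.18 (unadjusted p = 0.0493, adjusted p = 0.754), and the other 5 members lay between -0.06 (Gsdmd) and 0.36 (Mlkl). Of the microglia markers 7 of 10 had an unadjusted p under 0.05 in this comparison, where 6.61% of all genes did. Their median was 0.31, 0 passed the adjusted threshold, and their part in the Nlrp3 value was not tested.

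The change with time differed between the genotypes. The genotype by time term asks whether the G93A effect at 155 days exceeded that at 90 days, and in untreated mice 6 of 7 members passed it, all upward, against 21.2% of 19829 genes in either direction and 12.9% upward. Pycard had the largest difference, 2.59 ± 0.33 (adjusted p = 6.88e-07), followed by Gsdmd at 1.79 ± 0.22 (adjusted p = 3.20e-07), Casp8 at 1.75 ± 0.26 (adjusted p = 7.71e-06) and Nlrp3 at 1.42 ± 0.39 (adjusted p = 0.00916). Casp1 had 1.33 ± 0.28 (adjusted p = 0.000933) and Ripk1 1.20 ± 0.18 (adjusted p = 9.50e-06). Mlkl, at 0.88 ± 0.49 (adjusted p = 0.209), did not pass.

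In OKN-007 treated mice 5 of 7 members passed the genotype by time term, against 23% of genes in either direction and 13% upward. Pycard had 2.24 ± 0.33, Casp8 1.84 ± 0.26, Gsdmd 1.83 ± 0.22, Casp1 1.74 ± 0.29 and Ripk1 1.06 ± 0.18. The 2 that did not pass were Mlkl, at 0.70 ± 0.48 (adjusted p = 0.323), and Nlrp3, at 0.59 ± 0.38 (adjusted p = 0.285). Ripk3, fitted without the filter, had 2.05 ± 0.97 (adjusted p = 0.210) in untreated and 1.37 ± 0.97 (adjusted p = 0.506) in treated mice.

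The parts of these terms were read directly in untreated mice. From 90 to 155 days 6 of 7 members rose in G93A mice, against 33.7% of genes in either direction and 21% upward, by 1.08 (Ripk1) to 2.10 (Pycard) on the log2 scale. Mlkl was at 0.991 ± 0.254 CPM at 90 days and 1.32 ± 0.380 CPM at 155 days (adjusted p = 0.369). In WT mice 1 of 7 members was called over the same interval, against 24.9% of genes in either direction and 9.61% downward. That member was Gsdmd, which fell from 5.06 ± 0.841 to 3.61 ± 0.373 CPM (log2 fold change -0.49 ± 0.16, adjusted p = 0.0231), with 4.90, 4.07, 5.17 and 6.11 CPM at 90 days and 3.20, 3.73, 3.44 and 4.07 CPM at 155 days. The call was lost without WT untreated 90 days replicate 3 or 4 or WT untreated 155 days replicate 1 or 3. Pycard was at -0.49 ± 0.25 (adjusted p = 0.143) in WT mice. In these WT mice the sum of 7 oligodendrocyte markers was 32535 to 39334 CPM at 90 days and 21237 to 23247 CPM at 155 days, without overlap, and 6 of the 7 fell. It was 28640 to 35657 and 20761 to 25026 CPM in G93A untreated mice. The caudal Hox sum of the WT mice was 19.0 to 92.7 CPM at 90 days and 84.1 to 148 CPM at 155 days, and the part of these markers in the time differences was not tested. The times share no mouse, and any difference in handling between the times cannot be told apart from age.

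The wider pathways were read from lists that leave out the 8 members. Of 28 inflammasome and pyroptosis genes 24 were tested in untreated mice at 155 days, 18 rose and 0 fell, with a median log2 fold change of 1.48 against 0.00 over all genes, of which 39.5% were called and 21.3% upward. The cytokine gene Il1b rose by 3.05 ± 0.49 (SE, adjusted p = 7.49e-05) from 0.0896 to 0.801 CPM in mean, Naip5, a sensor of bacterial flagellin, by 2.94 ± 0.22, Casp12, an inflammatory caspase, by 2.89 ± 0.16, and Nlrp1a, another sensor, by 2.80 ± 0.52. The smallest called changes were those of Nek7, the kinase that binds Nlrp3, at 0.24 ± 0.09 (adjusted p = 0.0337), Aim2, a sensor of DNA, at 1.09 ± 0.15, and P2rx7, an ATP-gated channel, at 1.14 ± 0.11. Naip and Nlrp1 genes have near copies between which reads could be split, so their single values are uncertain. Genes as low in WT mice as Il1b and Nlrp1a are tested only if other groups are high. They could hardly be counted as falling, which tilts list counts and medians upward. Il18, the other cytokine that Casp1 matures, was at 17.2 ± 1.37 CPM in WT and 18.4 ± 1.79 CPM in G93A mice (adjusted p = 0.363), and was chosen for mention after its value was seen. In treated mice 17 of these genes rose, against 23.3% of all genes upward and 41.5% in either direction, and 1, Gsdme, which encodes another pore former, fell; it too was named after its value was seen.

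Of 27 necroptosis signalling genes all were tested, 16 rose and 2 fell, with a median of 0.51, against the same 21.3% of all genes upward and 39.5% in either direction. Tnf, the ligand, rose by 3.66 ± 0.59 from 0.0592 to 0.770 CPM, Zbp1, a nucleic acid sensor that engages Ripk3, by 3.63 ± 0.50 from 0.236 to 2.78 CPM, and the death receptors Fas and Tnfrsf1a by 2.19 ± 0.21 and 2.12 ± 0.13. Il1b, Nlrp1a and Tnf had WT means below the level of 3 counts, so their folds are uncertain. Zbp1 was uneven in WT mice (0.236 ± 0.279 CPM, SD, n = 4), so its fold is uncertain too. Tnf and Zbp1 also could hardly be counted as falling. Tnfrsf1a went from 16.6 ± 1.92 to 71.3 ± 13.2 CPM. The members of the list that fell were Cyld (-0.31 ± 0.08, adjusted p = 0.00339), a deubiquitinase that promotes Ripk1 signalling, and Tbk1 (-0.19 ± 0.07, adjusted p = 0.0451), a kinase that restrains Ripk1. Rnf31, of the linear ubiquitin ligase, had the smallest called rise at 0.22 ± 0.07. In treated mice 18 of the 27 rose, against 23.3% of all genes upward, and 1, Tbk1, fell.

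Of 25 apoptosis genes, given for comparison, 13 rose and 2 fell, with a median of 0.45, against 21.3% of all genes upward and 39.5% in either direction. The largest rises were those of Bcl2a1b (2.17 ± 0.45), Mcl1 (1.14 ± 0.12) and Bmf (0.94 ± 0.15), of which Bcl2a1b and Mcl1 encode inhibitors of apoptosis. The WT mean of Bcl2a1b, 0.136 CPM, was below the level of 3 counts, so its fold is uncertain and it could hardly be counted as falling. Bok (-0.53 ± 0.16), a Bcl-2 family effector, and Cycs (-0.27 ± 0.06), cytochrome c, fell, and Hrk (0.45 ± 0.16), a BH3-only protein, had the smallest called rise. In treated mice 15 rose, against 23.3% of all genes upward and 41.5% in either direction, and 1, Cycs, fell. For OKN-007 at either time, in either genotype, 0 genes of the 3 lists passed in edgeR.

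**Figure D4:**
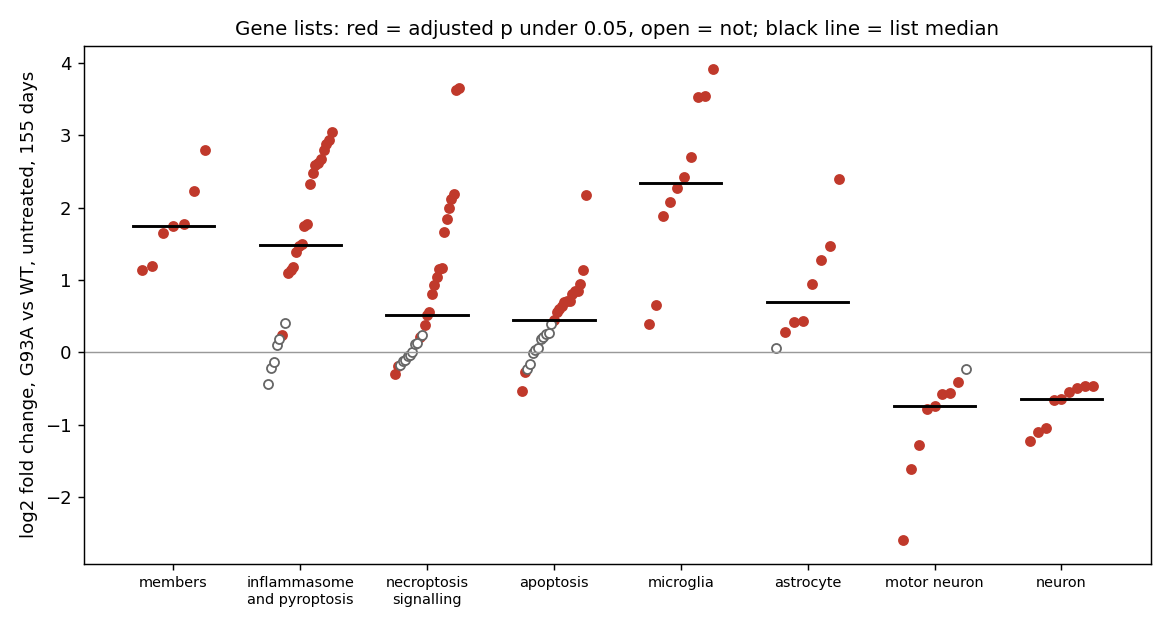
Log2 fold change of G93A against WT, untreated, 155 days (vertical axis) for each tested gene of the members, of 3 pathway lists and of 4 cell type marker lists; red points passed an adjusted p of 0.05, open points did not, and black lines are list medians. The medians are 1.75 for the members, 1.48, 0.51 and 0.45 for the pathway lists, and 2.35 for the microglia markers.

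Markers of microglia moved with the members. At 155 days all 10 microglia markers rose in G93A untreated mice, with a median of 2.35, and all 10 in treated mice, with a median of 2.47. Over all genes tested 21.3% were called upward in untreated and 23.3% in treated mice. Their summed level was 330 to 407 CPM in WT untreated, 306 to 356 CPM in WT OKN-007, 1467 to 2640 CPM in G93A untreated and 1816 to 2241 CPM in G93A OKN-007 mice, without overlap between genotypes. Among the defining markers Aif1 rose by 2.70 ± 0.20 and Cx3cr1 by 2.08 ± 0.17, while P2ry12 rose by 0.39 ± 0.13. At 90 days the sum was 383 to 436 CPM in WT untreated and 390 to 607 CPM in G93A untreated mice, and 389 to 468 CPM against 473 to 562 CPM with OKN-007. None of the 10 was at 0 in every mouse of a group, and their part in the members' values was not tested.

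Markers of other cells were read the same way in untreated mice at 155 days. Over all 18675 genes tested there, 3981 were called upward and 3397 downward, and 47.2% had an unadjusted p under 0.05. Of 10 neutrophil and monocyte markers 2 passed the filter and 0 were called (1 at an unadjusted p under 0.05), and their sum was 0.335 to 2.44 CPM in WT and 0.937 to 1.70 CPM in G93A mice. Ccr2, a chemokine receptor of monocytes, was at 0.127 CPM in WT and 0.365 CPM in G93A mice in mean (log2 fold change 1.52 ± 0.60, adjusted p = 0.0519), while the neutrophil markers S100a8 and Ly6g, too low to be tested, were at most at 0.420 and 0.0391 CPM in any mouse of these groups. Of 8 T cell markers 4 were tested and 2, Cd3g and Cd8a, rose. The sum of the 8 was 2.53 to 3.82 CPM in WT and 4.76 to 6.41 CPM in G93A mice. The WT means of Cd3g and Cd8a were below the level of 3 counts, so they could hardly be counted as falling. Astrocyte markers rose in 7 of 8 cases, neuron markers fell in 9 of 9 and motor neuron markers in 8 of 9. Of 7 oligodendrocyte markers 1, Mag, rose, of 6 endothelial markers and of 5 liver genes tested 0 were called by edgeR, with 2 and 1 at an unadjusted p under 0.05, and of 6 caudal Hox genes 2, Hoxc11 and Hoxd11, fell. Ccr2, Cd8a, Mag and the Hox genes were named after their values were seen.

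Set against the microglia marker sum of the same mouse, the members did not all keep 1 ratio. Pycard was 0.346 ± 0.0936% of the sum in WT untreated and 0.445 ± 0.0859% in G93A untreated mice at 155 days, with overlap. Nlrp3 was 0.165 ± 0.0409% and 0.143 ± 0.0264%, also with overlap. Gsdmd went from 0.977 ± 0.172% to 0.607 ± 0.0530%, Casp1 from 0.616 ± 0.129% to 0.353 ± 0.0464%, Casp8 from 1.03 ± 0.148% to 0.639 ± 0.0879%, Mlkl from 0.156 ± 0.0504% to 0.0666 ± 0.0186% and Ripk1 from 2.63 ± 0.261% to 1.08 ± 0.244%. For these 5 genes every G93A mouse was below every WT mouse, as it was for 93.1% of all genes tested; the marker sum itself rose. In the OKN-007 mice of that time the same 5 genes were again lower without overlap. So was Nlrp3, at 0.272 ± 0.0141% in WT and 0.128 ± 0.0101% in G93A, where 95% of genes tested were lower without overlap. Pycard and Ripk3 overlapped there. At 90 days Nlrp3 was higher in G93A than in WT untreated mice, at 0.135 to 0.185% against 0.0973 to 0.128%. With OKN-007 at 90 days its groups overlapped, and the share over all genes is not given for that time. These ratios are descriptions with no test, and they move with the choice of markers.

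**Figure D5:**
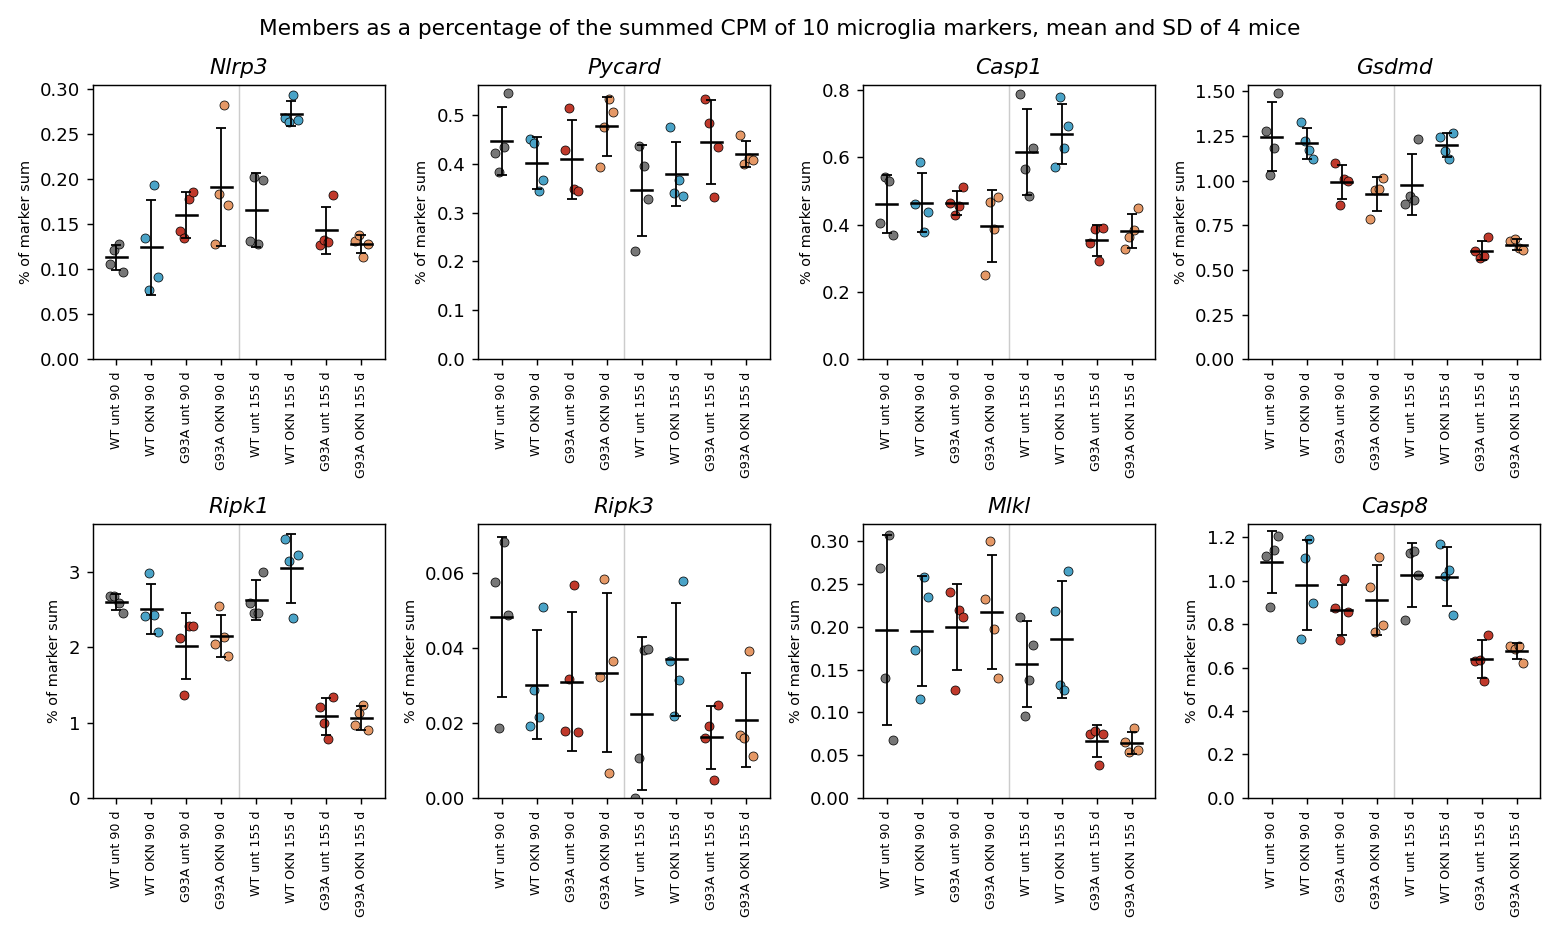
Each member's CPM as a percentage of the summed CPM of 10 microglia markers in the same mouse (vertical axes, linear from 0), by group, with the mean and SD of 4 mice (unt, untreated; OKN, OKN-007; d, days). At 155 days the G93A untreated mice lie below the WT untreated mice for Ripk1, Mlkl, Gsdmd, Casp1 and Casp8 and overlap them for Pycard, Nlrp3 and Ripk3.

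The genes whose pattern over the 8 groups was closest to each member were found from centred group means of log2(CPM + 1), as the smallest mean absolute difference among 19817 genes. For Pycard they were Sp110 (0.0520) and Sla (0.0526), on a range of 2.13 for Pycard between its highest and lowest group. For Nlrp3 they were Otud1 (0.0812) and F3 (0.0868), more distant than for the other 6 members compared. For Casp1 they were Cyp4v3 (0.0426) and Tnfsf11 (0.0430), for Gsdmd F11r (0.0337) and Srgn (0.0393), and for Casp8 5430427O19Rik (0.0430) and Akr1b8 (0.0464). For Ripk1 they were Tfpi (0.0249) and Pald1 (0.0352), and for Mlkl Traf2 (0.0368) and Pex11g (0.0390). None of the 7 members compared was among another's 2 closest genes, Ripk3 was not compared, and the pseudocount of 1 compresses the patterns of low genes such as Mlkl and Nlrp3.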

How the data were processed

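RNA of 25 mg spinal cord samples was sequenced from stranded mRNA libraries. The authors deposited 1 table of raw read counts per gene, not normalized. Their methods name Trimmomatic, STAR on GRCm38 and HTSeq with GENCODE M10, while the submitters' processing notes name FastQC, STAR, featureCounts, edgeR and the builds GRCm39, mm39 and hg38. The table holds 1306 gene IDs numbered above the highest of GENCODE M21, so it was counted on a newer annotation than M21, and M21 (GRCm38) was used for symbols, coordinates and exon lengths only; 41203 of 42524 IDs (96.9%) matched.

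The counts were fitted with edgeR 4.0.16 in R 4.3.3 (filterByExpr, TMM, estimateDisp, glmQLFit and glmQLFTest, two-sided, Benjamini-Hochberg over all genes tested, threshold 0.05), with the 16 mice of each time as 4 groups or all 32 mice as 8 groups for comparisons between times. Library totals were 19701722 to 30138257 (median 26658755). Intervals are 95%. Ripk3 did not pass the filter and was fitted without it. Alternatives were DESeq2 1.42.0, the likelihood ratio test, RLE scaling, other filters, thresholds and sample sets, a caudal Hox covariate, a replicate block and leaving out each mouse. The members and lists were chosen with earlier results of these data known. In each pathway list the 4 largest and 3 smallest log2 fold changes past the threshold in untreated mice at 155 days were named, and per member the 2 genes closest in pattern. Of these genes, 1 is not reported here.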

Additional observations from a re-analysis of the deposited data

Results flagged for a closer look

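Among 64 sets of 4 mice (8 members in 8 groups), 1 mouse stood apart from the other 3 beyond Dixon's 95% critical value, against about 3.2 by chance. Ripk1 was at 13.8 CPM in G93A untreated 90 days replicate 11, where the next highest mouse of the group was at 9.15 CPM. The same mouse was the highest of its group for Ripk3, Mlkl, Gsdmd, Casp1, Casp8 and Nlrp3 but not for Pycard.

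The effect of genotype differed between the times for 6 members in untreated mice. The difference of the log2 fold changes, 155 days minus 90 days, was 1.20 for Ripk1 (adjusted p = 9.50e-06), 1.79 for Gsdmd (3.20e-07), 1.33 for Casp1 (0.000933), 1.75 for Casp8 (7.71e-06), 1.42 for Nlrp3 (0.00916) and 2.59 for Pycard (6.88e-07). In OKN-007 treated mice it differed for 5 members, by 1.06 for Ripk1 (4.98e-05), 1.83 for Gsdmd (1.72e-07), 1.74 for Casp1 (3.35e-05), 1.84 for Casp8 (3.33e-06) and 2.24 for Pycard (6.41e-06). Nlrp3 passed in untreated and not in treated mice, and the difference between these 2 terms was not tested.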

How the results depend on the processing

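The number of members called kept within 1.5 times of its value under every alternative run for 14 of the 15 comparisons. The exception was 155 against 90 days in WT untreated mice, where 1 member, Gsdmd, was called, 0 were with a log2 fold change of at least 1, and 0 to 1 were when a mouse was left out. At 155 days 6 to 8 of the members were called in each genotype comparison. There were 8 without a filter, which adds Ripk3, and 7 to 8 when a mouse was left out. The Hox covariate gave 6, since Mlkl was lost. The filter of at least 10 counts in every mouse also leaves out Mlkl, which held 9 counts in WT untreated 155 days replicate 2. Without a filter the Ripk3 call was lost in untreated mice under 6 of 12 alternatives (log2 fold change 1.44 to 2.26, adjusted p 0.0189 to 0.184) and in treated mice under 5 of 12 (1.34 to 2.07, 0.0138 to 0.254); these alternatives were chosen after seeing the data. Over all genes, the genotype difference at 90 days averaged over treatments was called for 5 genes by edgeR, 66 by DESeq2 and 64 by the likelihood ratio test.

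Mice share a replicate number only across the 2 times and are different animals. With a replicate block 6 and 5 members were called for genotype by time in untreated and treated mice, the counts without it, and 1 and 6 for time in WT and G93A untreated mice. Deviations of same-numbered mice correlated over 0.1 in 3 of 16 pairs (-0.22 to 0.26), so no pairing was used. Depth limits Ripk3 (0 to 23 counts per mouse), Mlkl (7 to 48) and Nlrp3 (8 to 87) most.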
